A study of Arabidopsis thaliana with 6 samples.

Results

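Subtilases are serine proteases related to bacterial subtilisin, and in plants they form a large family whose members are mostly secreted into the cell wall space. They are made as inactive precursors with an inhibitory propeptide, and many are known for cutting other proteins into their working form, among them peptide hormones, wall enzymes and membrane-bound transcription factors. In seedlings members of the family are known to act in stomatal patterning, cuticle formation, growth, defence and the response of the endoplasmic reticulum to unfolded proteins.

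The genes described here are 55 Arabidopsis loci of this family, listed by locus identifier. Measured values did not decide which loci were listed, but the list was drawn up with earlier results of these data known. Of these, 43 had a probe set that the platform annotation pairs with that locus alone, and no locus had more than 1 such probe set. Another 5 loci are named only on probe sets shared with another gene, and 7 are named on none, among them SDD1, ALE1, AIR3 and XSP1; these 12 loci are left out of all comparisons. Of 22746 probe sets on the array other than controls, 13436 were matched to a single locus.

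Transcripts of whole, untreated seedlings were hybridised to the ATH1 array, a chip on which each gene is read by a group of short probes, called a probe set. The wild type was the Col-0 accession, and the mutant was atsf1-2 in the same accession, a mutant of AtSF1, which is a pre-mRNA splicing factor. Both genotypes are represented by 3 biological replicates, with 1 array each. The seedlings stood on MS agar plates at 23 C, under days of 16 h light and nights of 8 h, and were 9 days old. The labels do not describe the nature of the atsf1-2 allele, and no probe set is paired with the AtSF1 locus alone, so the genotypes were not checked against that transcript. Values are signal intensities on a linear scale, and differences are given on the log2 scale as atsf1-2 minus Col-0, with standard errors (SE) and adjusted p-values from limma, a linear model fitted to all probe sets together and adjusted by the Benjamini-Hochberg method. A gene was said to rise or fall when its adjusted p lay under 0.05.

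Median signals of the arrays ran from 183 to 196 in Col-0 and from 165 to 181 in atsf1-2. Every mutant median thus lay below every wild-type median. Having 3 arrays per genotype limits the precision of every value. Leaf and root transcripts were present in both genotypes, with mean signals of RCA, the activase of Rubisco, at 19974 in Col-0 and 22459 in atsf1-2, and of PYK10, a root beta-glucosidase, at 15808.5 in Col-0 and 15723 in atsf1-2. The listed markers of seeds and flowers had no probe set named for them alone, and those tissues are not judged here. The ratio of 3' to 5' signal of control transcripts reflects how complete the labelled RNA is. For actin it was 2.14 for Col-0 replicate 2 and 2.47 for atsf1-2 replicate 3, against 3.36 to 3.63 on the rest. For GAPDH and ubiquitin, atsf1-2 replicate 3 (1.09 and 1.31) lay inside the range of the rest. Col-0 replicate 2 was the lowest array in both (0.896 and 1.22). Among these control ratios, only that of actin thus set atsf1-2 replicate 3 apart. The low end of the signals set both arrays apart as well. The 25th percentile was 46.0 on atsf1-2 replicate 3 and 50.3 on Col-0 replicate 2, against 31.7 to 36.9 on the rest. Since whole seedlings were used, fewer cells of a type and less RNA per cell cannot be told apart.

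The comparison asked which subtilase transcripts differ in seedlings that carry the atsf1-2 mutation. Of 43 measured loci, 19 had a mean signal high enough to be tested and 24 did not, the lowest geometric mean kept by the signal filter being 104. Of the 19 tested, AT5G51750 (SBT1.3) rose, AT5G59130 and AT2G39850 fell, and 16 did not pass. The share of all tested probe sets called was 8.19%, with 3.00% higher and 5.19% lower in atsf1-2, against 15.8% of these 19, a share that rests on 3 genes. Of these 3, AT5G59130 passed the filter through its Col-0 signals, and the counts depend on the filter. With no filter 2 members were higher and 1 was lower. The genotypes did not overlap for 5 of the 19 genes, against 31.3% of all tested probe sets.

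**Figure D1:**
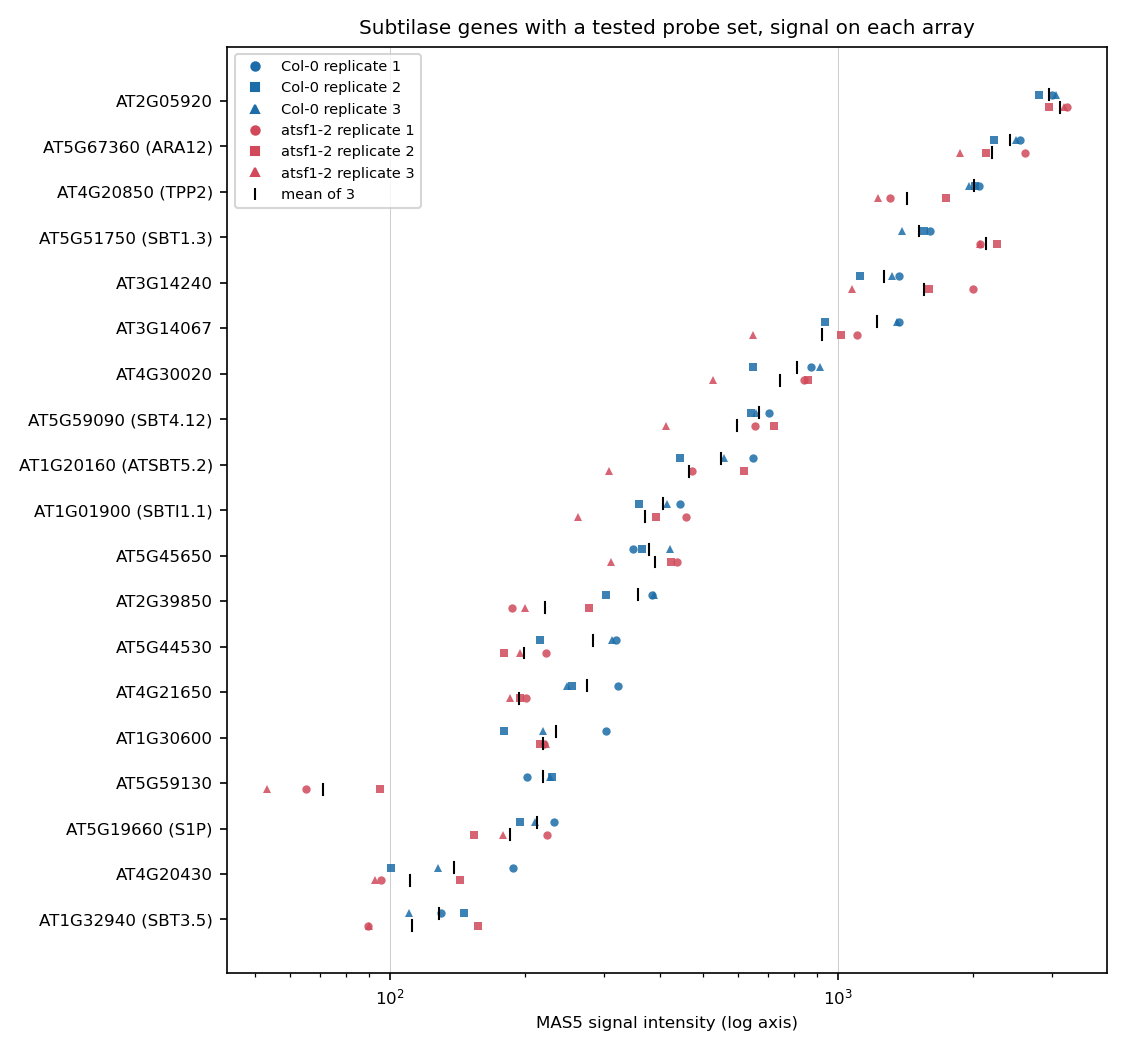
Signal intensity (log axis) of the 19 tested subtilase genes on each of the 6 arrays, with Col-0 in blue, atsf1-2 in red, a marker shape for each replicate and a black tick at the mean of 3. AT5G59130 shows the widest gap between genotypes, from 220.4 to 71.2, and atsf1-2 replicate 3 is the lowest mutant array for 12 of the 19 genes.

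AT5G59130 showed the largest difference among the tested subtilases and lay 13th from the lowest log2 difference among all 13648 tested probe sets. It belongs to a run of neighbouring subtilase genes on chromosome 5. Its signal was 203, 231 and 228 on the Col-0 arrays and 65.0, 95.2 and 53.4 on the atsf1-2 arrays. Every mutant array thus lay below every wild-type array by more than the spread within either genotype. The mean fell from 220.4 ± 15.2 (SD, n = 3) to 71.2 ± 21.6 (SD, n = 3), a log2 difference of -1.67 ± 0.24 (SE, limma adjusted p = 0.00366), or 3.18-fold lower. The call held under all 14 alternatives that gave a value, with log2 differences between -1.90 and -1.26 and limma adjusted p between 0.000295 and 0.0224. The mutant mean lay under the lowest mean kept by the filter, so the size of the fall depends on how dim signals are treated. It was -1.26 with a pseudocount of 38.4 added to each signal. Every mutant signal lay under 104, so the gene passed the filter through its Col-0 signals. Its place among the tested genes and its rank thus rest on the genotype in which it is high. With no filter it was still called (limma adjusted p = 0.0112).

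AT5G51750, named SBT1.3, was the only tested subtilase that rose. Its signal was 1607, 1554 and 1392 in Col-0 and 2072, 2261 and 2079.8 in atsf1-2. The mutant arrays lay above all wild-type arrays, and the spread within each genotype was narrow. The mean rose from 1518 ± 112 (SD, n = 3) to 2137 ± 107 (SD, n = 3), a log2 difference of 0.50 ± 0.12 (SE, limma adjusted p = 0.0328), or 1.41-fold. Its rank was 620th from the highest log2 difference among tested probe sets. The log2 difference stayed between 0.43 and 0.64 under all 15 alternatives. It was no longer called once Col-0 replicate 1 was dropped (limma adjusted p = 0.1002), nor Col-0 replicate 2 (0.0770) or Col-0 replicate 3 (0.145), nor without atsf1-2 replicate 1 (0.0832) or atsf1-2 replicate 2 (0.0689), and by eBayes without trend (0.0600). With the replicate number as a block it also ended (limma adjusted p = 0.0851).

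AT2G39850 fell by less, and its call was near the threshold. The signal was 384, 303 and 389 in Col-0 and 187, 278 and 199.9 in atsf1-2. The genotypes did not overlap, but the highest mutant array and the lowest wild-type array lay close together. The mean fell from 359 ± 48.4 (SD, n = 3) to 222 ± 49.2 (SD, n = 3), a log2 difference of -0.71 ± 0.19 (SE, limma adjusted p = 0.0471), or 1.63-fold lower. The log2 difference lay between -0.88 and -0.56 under all 14 alternatives that gave a value, and 11 of them ended the call. Among these were Col-0 replicate 1 left out (limma adjusted p = 0.171), Col-0 replicate 2 (0.0665), Col-0 replicate 3 (0.169), atsf1-2 replicate 1 (0.147) and atsf1-2 replicate 3 (0.0746). The others were no filter (0.0830), quantile normalization (0.0898), median centring (0.0784), eBayes without trend (0.0562), the replicate block (0.105) and dropping both Col-0 replicate 2 and atsf1-2 replicate 3 (0.0564).

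**Figure D2:**
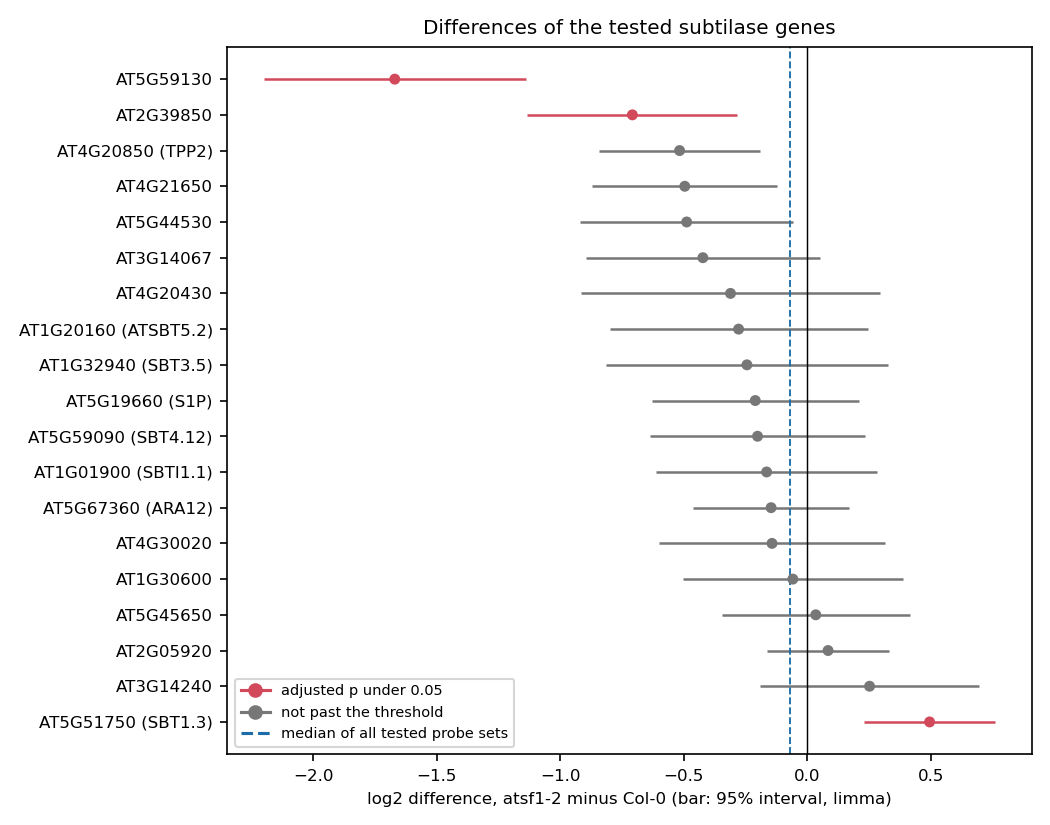
Log2 difference between atsf1-2 and Col-0 for the 19 tested subtilase genes (points) with the 95% interval from limma (bars), and the median of all tested probe sets as a dashed line. The 3 genes past the threshold are in red, and 15 of the 19 points lie below 0, which also holds for 58.5% of all tested probe sets.

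TPP2 and S1P are known to act inside the cell, unlike the secreted members that make up most of the family. TPP2 (AT4G20850), tripeptidyl peptidase II, is a large cytosolic enzyme that removes tripeptides from the ends of peptides. Its signal was 2069, 2021 and 1959 in Col-0 and 1305, 1743 and 1229 in atsf1-2. The genotypes did not overlap, and the mutant arrays varied more than the wild-type arrays. The mean was 2016 ± 55.4 (SD, n = 3) and 1426 ± 278 (SD, n = 3), a log2 difference of -0.52 ± 0.15 (SE), which did not pass (limma adjusted p = 0.0547). Weighting each array by how closely it followed the fitted genotype means brought it past the threshold (limma adjusted p = 0.0125), as did dropping atsf1-2 replicate 2 (0.0208). These weights do not measure RNA quality. They were lowest for atsf1-2 replicate 3 (0.31) and Col-0 replicate 2 (0.53) and highest for Col-0 replicate 1 (2.45).

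S1P (AT5G19660), site-1 protease, sits in the Golgi and releases transcription factors from their membrane anchors when unfolded proteins build up. Its signal was 233, 196 and 211 in Col-0 and 224, 154 and 179 in atsf1-2, so that the genotypes overlapped. The log2 difference was -0.21 with a 95% interval from -0.63 to 0.21 (limma adjusted p = 0.519). Its known substrates BZIP17 and BZIP28 had log2 differences of 0.12 ± 0.21 and 0.27 ± 0.20 (SE). The remaining tested gene of this pathway, S2P (AT4G20310), had a log2 difference of -0.36 ± 0.33 (SE). The 3 tested genes of the 11 listed for this pathway did not pass, and their median log2 difference was 0.12.

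Several secreted subtilases are known for cutting peptide hormone precursors, and no tested one of them passed. SBTI1.1 (AT1G01900), which acts on a precursor of the growth peptide phytosulfokine, had signals of 443, 361 and 416 in Col-0 and of 458, 392 and 263 in atsf1-2. ATSBT5.2 (AT1G20160), which cuts the precursor of a peptide that limits stomata, had signals of 646, 445 and 558 in Col-0 and of 473, 616 and 308 in atsf1-2. Their log2 differences had 95% intervals from -0.61 to 0.28 for SBTI1.1 and from -0.80 to 0.24 for ATSBT5.2. In both genes the lowest of the 6 values was that of atsf1-2 replicate 3. Without that array the log2 difference of SBTI1.1 turned from -0.16 to 0.064, and that of ATSBT5.2 went from -0.28 to -0.0083 (limma adjusted p = 0.983). SBT4.12 and SBT4.13, which together with ATSBT5.2 are known to act on the abscission peptide IDA, lie in the run of genes around AT5G59130 and are given there.

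Few known partners of these proteases could be tested. In the stomatal pathway of SDD1, 2 of 13 listed genes could be tested, and STOMAGEN, a peptide that promotes stomata, had a log2 difference of 0.025 ± 0.17 (SE) and FMA, a factor of guard cell formation, of -0.00037 ± 0.24 (SE). In the pathway of ALE1, which seals the embryo cuticle, 3 of 6 could be tested, with a median of -0.35, and AT5G01075 had the smallest p, with signals that averaged 296 in Col-0 and 199 in atsf1-2 (log2 difference -0.58 ± 0.17 SE, limma adjusted p = 0.0651). Of 11 listed peptide precursors 1 could be tested, AT4G34600, with a log2 difference of -0.29 ± 0.16 (SE). Of 7 enzymes of pectin and mucilage none could be tested. The listed inhibitor, AT1G71950, had a log2 difference of 0.17 ± 0.15 (SE). In all, 10 of 49 listed partner genes were tested and 0 passed by limma, a count too small to set against the 8.19% of all tested probe sets that were called, the smallest adjusted p being that of AT5G01075, whose unadjusted p was 0.00687. No other tested partner had an unadjusted p under 0.05.

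Among subtilases known to act on the cell wall, ARA12 (AT5G67360), which is needed for mucilage release from seed coats, had signals of 2542, 2234 and 2497 in Col-0 and of 2618, 2136 and 1869.95 in atsf1-2. SBT3.5 (AT1G32940), which processes a pectin methylesterase in roots, had signals of 130.4, 146 and 111 in Col-0 and of 89.6, 157 and 89.8 in atsf1-2. The genotypes overlapped for both genes. The 95% interval of the log2 difference ran from -0.46 to 0.17 for ARA12 and from -0.82 to 0.33 for SBT3.5.

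The remaining 9 tested loci carry no name in the gene table used here. AT4G21650 had signals of 324, 255 and 249 in Col-0 and of 201, 196 and 186 in atsf1-2, without overlap, and a log2 difference of -0.50 ± 0.17 (SE, limma adjusted p = 0.0952). AT5G44530 had signals of 321, 216 and 314 in Col-0 and of 224, 180.2 and 195 in atsf1-2, with overlap, and a log2 difference of -0.49 ± 0.20 (SE, limma adjusted p = 0.145). With array weights both passed, with limma adjusted p of 0.0404 for AT4G21650 and 0.0308 for AT5G44530. AT3G14067 had signals of 1372, 937 and 1358 in Col-0 and of 1104, 1014 and 648 in atsf1-2. In Col-0 replicate 2 and in atsf1-2 replicate 3 its signal was the lowest of the genotype, and the log2 difference of -0.42 ± 0.22 (SE) did not pass (limma adjusted p = 0.244). AT4G20430, AT4G30020 and AT1G30600 had log2 differences of -0.31 ± 0.28, -0.14 ± 0.21 and -0.058 ± 0.20 (SE). That of AT4G20430 lay between -0.52 and -0.068 when single arrays were left out, the latter without Col-0 replicate 1.

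Above 0, besides SBT1.3, lay AT3G14240, AT2G05920 and AT5G45650, which did not pass. AT3G14240 had signals of 1369, 1121 and 1321 in Col-0 and of 1998, 1596 and 1074 in atsf1-2. Here atsf1-2 replicate 3 was the lowest of all 6 arrays while the other mutant arrays were the highest. The log2 difference was 0.25 ± 0.20 (SE, limma adjusted p = 0.463). It was 0.50 without atsf1-2 replicate 3 (limma adjusted p = 0.0561) and 0.049 without atsf1-2 replicate 1. AT2G05920, whose signal was the highest of the family's probe sets, lay between 2805 and 3059 in Col-0 and between 2961 and 3244 in atsf1-2. Its log2 difference was 0.084 with a 95% interval from -0.16 to 0.33, and it turned to -0.0039 after quantile normalization. Signals of different probe sets do not rank transcript levels between genes, since probes differ in how strongly they bind. AT5G45650 had a log2 difference of 0.035 ± 0.17 (SE).

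The tested subtilases as a list had a median log2 difference of -0.21, against -0.070 over all tested probe sets. Below 0 lay 15 of 19, or 78.9%, against 58.5% of all tested probe sets. The offset from the median of all probe sets was -0.14. Centring each array on its median moves every log2 difference up by 0.14 and leaves that offset as it is by construction; 14 of 19 then lay below 0, against 41.6% of all tested probe sets. The offset was -0.016 without atsf1-2 replicate 3, with 12 of 19 below 0, and -0.20 without Col-0 replicate 2, with 15 of 19. It was -0.099 without both of these arrays, with 14 of 19 below 0. Without Col-0 replicate 1 it was -0.083, without Col-0 replicate 3 it was -0.14, and without atsf1-2 replicate 1 or 2 it was -0.23 and -0.27, with 16 of 19 below 0 in either case. Replicate 3 of atsf1-2 held the lowest mutant value for 12 of the 19 genes, against 42.1% of all tested probe sets. Col-0 replicate 2 held the lowest wild-type value for 13 of the 19, against 41.3%. The pooled SD within genotypes, on the log2 scale, had a median of 0.27 over the 19 genes and of 0.20 over all tested probe sets. The part of these arrays in the list's median was not tested beyond leaving them out.

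Many subtilase genes stand next to close relatives. Counting members no more than 10 genes apart as neighbours, 30 of the 55 loci fell into 9 tandem groups. Of the 25 tandem loci with a probe set of their own, 24% passed the signal filter, against 72.2% of the 18 other loci. Over the whole array, 7216 of 13286 loci with such a probe set passed it. Of the 8 tandem groups with a probe set, 3 had no tested member, 4 had 1 and 1 had 2. A single copy passed the filter among AT1G20150 and AT1G20160, among the 4 genes from AT1G32940 to AT1G32970, among the 3 genes from AT4G21630 to AT4G21650 and among AT5G45640 and AT5G45650. No copy passed it among AT1G66210 and AT1G66220, among the 3 measured genes from AT4G10510 to AT4G10550, or among the 4 genes from AT5G58810 to AT5G58840, of which AT5G58810 is annotated as a pseudogene.

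The group with 2 tested members, on chromosome 5, runs from AT5G59090 to AT5G59190 and includes AT5G59130. At its start SBT4.12 (AT5G59090) had signals of 704, 639.5 and 658 in Col-0 and of 654, 721 and 413 in atsf1-2. These values overlapped, with atsf1-2 replicate 3 the lowest. Its log2 difference was -0.20 with a 95% interval from -0.64 to 0.23 (limma adjusted p = 0.555), and it turned to 0.044 without atsf1-2 replicate 3. SBT4.13 (AT5G59120), the next gene before AT5G59130, was dim, with signals of 22.7, 38.7 and 13.0 in Col-0 and of 20.8, 6.14 and 3.83 in atsf1-2. AT5G59100 lay between 7.16 and 30.5 and AT5G59190 between 4.04 and 99.6 over the 6 arrays, with overlap between the genotypes.

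The change at AT5G59130 was set against that of its neighbours by the ratio of both signals on each array. Over SBT4.12, the log2 ratio of AT5G59130 averaged -1.60 ± 0.17 (SD, n = 3) on the wild-type arrays, and on the mutant arrays -3.07 ± 0.23 (SD, n = 3), a difference of -1.47. No mutant array overlapped with a wild-type array in this ratio, and the exact permutation p, two-sided, was 0.1, the smallest that 3 against 3 arrays allow, so that this test could not pass 0.05 whatever the values. The difference lay between -1.57 and -1.34 when single arrays were left out. This ratio contains the fall of AT5G59130, a gene chosen with earlier results of these data known. It is thus no separate support for that fall. The other 3 neighbours lie below the signal filter, and ratios over them move widely with single values. Over AT5G59100 the difference was -2.48 (exact permutation p = 0.1), over AT5G59190 it was -1.45 (exact permutation p = 0.5) and over SBT4.13 it was -0.15 (exact permutation p = 0.8). Adjusted over these 4 ratios, the exact permutation p was 0.2 for SBT4.12 and AT5G59100. Without single arrays the difference over AT5G59190 ran from -2.59 (without Col-0 replicate 2) to -0.29 (without Col-0 replicate 3). The difference over SBT4.13 changed sign when quantile normalization was used (0.033), without Col-0 replicate 3 (0.27) and without atsf1-2 replicate 1 (0.59).

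**Figure D3:**
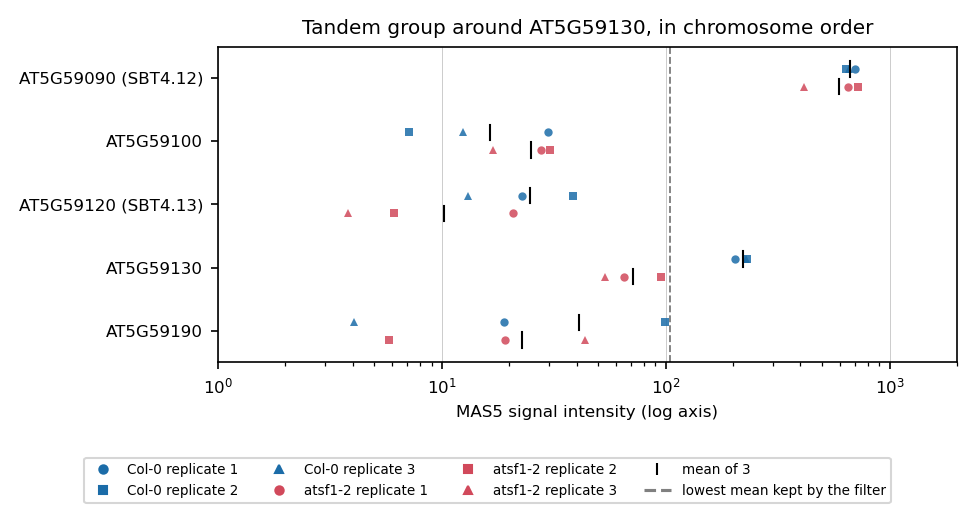
Signal intensity (log axis) on each of the 6 arrays for the 5 measured genes of the tandem group, from AT5G59090 at the top to AT5G59190 at the bottom, with the lowest mean kept by the filter as a dashed line. AT5G59130 passes from 203 to 231 in Col-0 to 53.4 to 95.2 in atsf1-2, SBT4.12 overlaps between genotypes, and the other 3 genes lie below the dashed line on all arrays.

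The 24 loci below the filter had geometric mean signals between 2.05 and 82.4, and the pooled SD within genotypes had a median of 1.26 on the log2 scale. Their values are given as signals, since small changes at this level move the log2 difference widely. The genotypes did not overlap for 4 of the 24, against 11.7% of all probe sets below the filter. These were SBT3.3 (AT1G32960), AT4G10540 and AT4G21630, which were higher in atsf1-2, and AT5G11940, which was lower. AT4G10540 lay between 3.06 and 11.5 in Col-0 and between 15.6 and 18.7 in atsf1-2, and AT4G21630 between 1.302 and 2.37 in Col-0 and between 2.56 and 8.66 in atsf1-2. AT5G11940 lay between 15.9 and 26.7 in Col-0 and between 0.799 and 8.31 in atsf1-2.

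SBT3.3, known for its part in the priming of plant immunity, had signals of 12.4, 26.3 and 14.4 in Col-0 and of 91.0, 57.4 and 79.9 in atsf1-2. All mutant values lay above all wild-type values and below the lowest mean kept by the filter. The Col-0 mean was 17.7 ± 7.54 (SD, n = 3), and the atsf1-2 mean was 76.1 ± 17.1 (SD, n = 3). In a fit with no filter, in which 3.10% of all probe sets were called, SBT3.3 passed with a log2 difference of 2.16 ± 0.49 (SE, limma adjusted p = 0.0419). SBT1.3 and AT5G59130 were the other members called there. Combining no filter with a second change, chosen after the data were seen, gave a log2 difference of 1.03 with the pseudocount (limma adjusted p = 0.0358). With no pseudocount, SBT3.3 was not called in the unfiltered fit when Col-0 replicate 1 was dropped (limma adjusted p = 0.159), and likewise for Col-0 replicate 3 (0.138), atsf1-2 replicate 1 (0.166), atsf1-2 replicate 2 (0.0719) or atsf1-2 replicate 3 (0.0739), with the replicate block (0.107) and by eBayes without trend (0.156). Its tandem neighbours AT1G32950 and AT1G32970 overlapped between genotypes, with signals between 4.49 and 33.8 and between 1.94 and 38.3. SBT5.4 (AT5G59810), the other named gene below the filter besides SBT4.13, lay between 6.88 and 31.1 on the Col-0 arrays and between 11.1 and 27.2 on the atsf1-2 arrays.

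**Figure D4:**
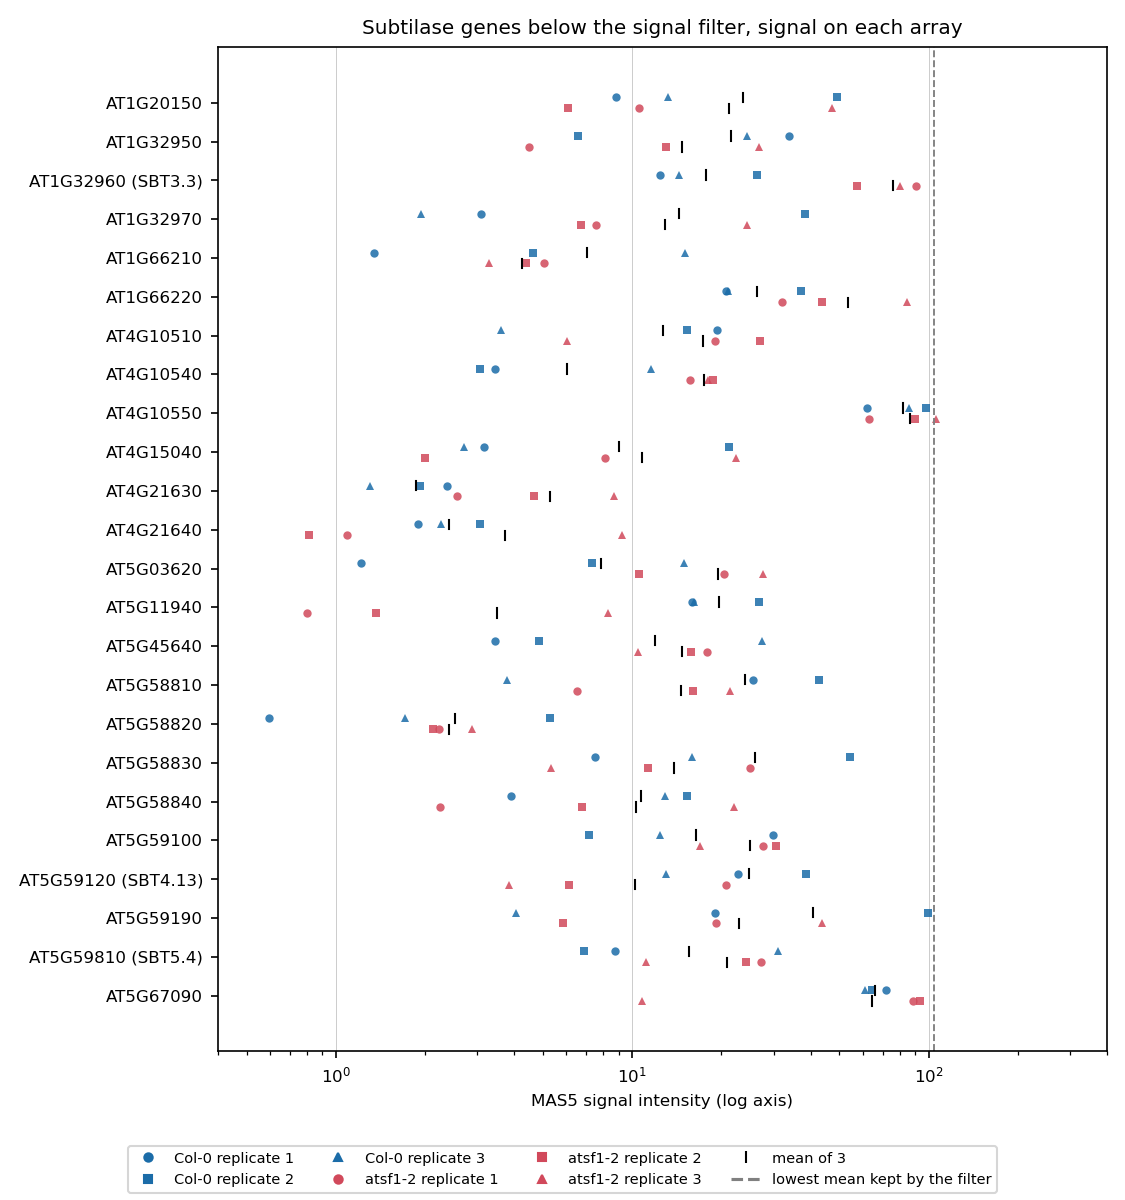
Signal intensity (log axis) on each of the 6 arrays for the 24 subtilase genes below the signal filter, with the lowest mean kept as a dashed line at 104. SBT3.3 stands out with 12.4 to 26.3 in Col-0 against 57.4 to 91.0 in atsf1-2, while the genotypes overlap for 20 of the 24 genes.

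The remaining genes below the filter overlapped between the genotypes. The brightest were AT4G10550, with 62.0, 98.1 and 85.8 in Col-0 and 62.8, 90.2 and 106 in atsf1-2, and AT5G67090, with 72.1, 64.4 and 61.2 in Col-0 and 89.0, 93.3 and 10.8 in atsf1-2. The single low value of AT5G67090 was again on atsf1-2 replicate 3. Among the 24 genes the highest wild-type value fell on Col-0 replicate 2 for 14, against 62.2% of all probe sets below the filter, and the highest mutant value on atsf1-2 replicate 3 for 14, against 51.1%. Of 5 loci named only on shared probe sets, AT3G46840 and AT3G46850 share one that read 14.8, 33.1 and 16.5 in Col-0 and 1.104, 0.636 and 3.80 in atsf1-2. These values did not overlap but were near the bottom of the scale and cannot be given to either gene.

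**Figure D5:**
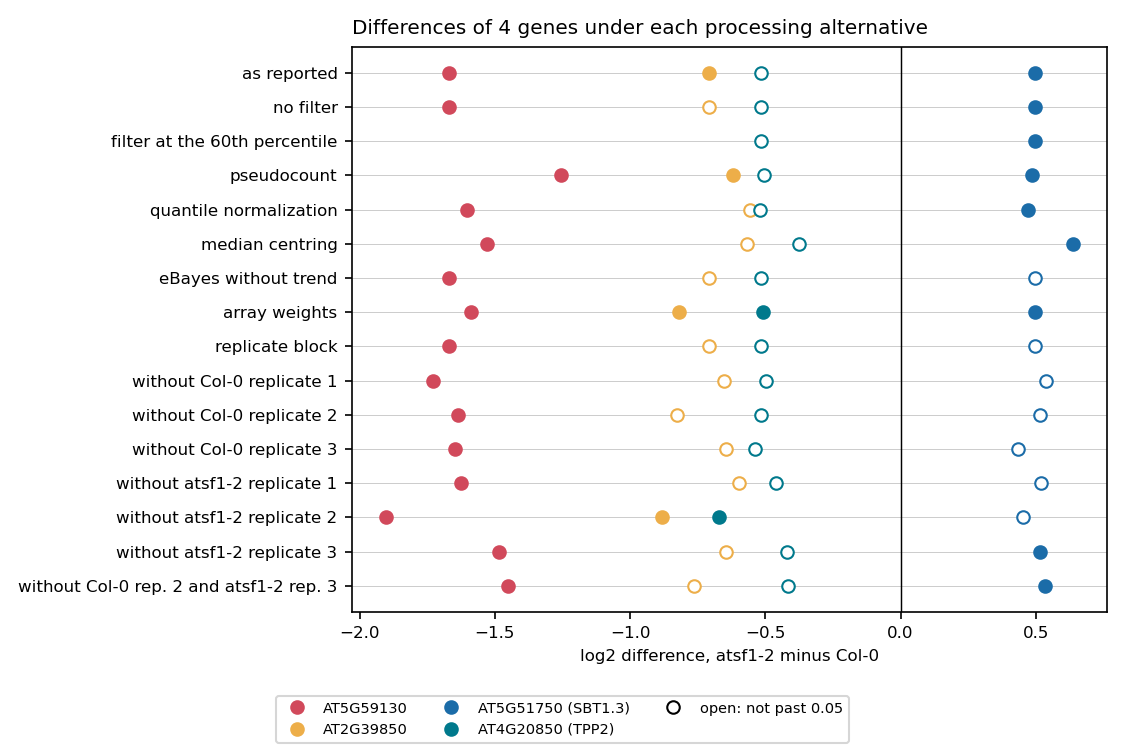
Log2 difference between atsf1-2 and Col-0 of 4 subtilase genes, each row being a processing alternative, with filled circles where the limma adjusted p was under 0.05 and open circles where it was not. AT5G59130 stays filled wherever it could be tested, between -1.90 and -1.26, while SBT1.3, AT2G39850 and TPP2 keep their sign and change between filled and open.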

How the data were processed

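Groups were taken from the titles, where every sample is numbered as a biological replicate of its genotype. The labels do not say whether these came from separate plates, and p-values measure the spread between these samples. The authors deposited 1 signal intensity per probe set and array, a MAS5 value; the submitters' processing notes name Affymetrix Expression Console 1.2. Its background and detection settings are not known here. As computed here, trimming the top and bottom 2% of values gave each array a mean of 500.04 to 500.05, so the arrays had been scaled to one level. Such scaling can shift all log2 differences together.

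Probe sets were paired with loci through the platform annotation and the RefSeq gene table of TAIR10.1, used for names and gene order alone. The 64 control probe sets were left out. Of the rest, 503 name several genes and 8730 none. Log2 signals were not scaled further. Probe sets with a mean log2 signal at or above the 40th percentile were kept (13648), and all of them entered 1 fit of genotype by lmFit and eBayes with a trend, two-sided (limma 3.58.1, R 4.3.3). The fit was tested on simulated data. Differences between neighbouring genes were compared by exact permutation.

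The members, the partner lists and the tests were chosen with earlier results of these data known. The genes named are those past the threshold, the tandem group of AT5G59130, all tested rises and the 5 largest falls that did not pass. Also named are the 5 highest signals, loci with a known role and, from each partner list, the gene with the smallest p. Genes below the filter whose genotypes did not overlap, the brightest of that group and the shared probe set were picked after seeing their values. Results were also computed with the filter removed or raised to the 60th percentile, with quantile normalization, median centring or 38.4 (the signals' 25th percentile) added as a pseudocount, with array weights, a replicate block or eBayes without trend, and by leaving out single arrays or Col-0 replicate 2 with atsf1-2 replicate 3. The filter of all 6 arrays was kept in each except those that change it.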

Additional observations from a re-analysis of the deposited data

How the results depend on the processing

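AT5G59130 was called under every alternative that gave it a value. With the 60th percentile filter neither AT5G59130 nor AT2G39850 could be tested, so the 0 falls given below for that filter are not lost calls. SBT1.3 and AT2G39850 kept their direction under every alternative that tested them, but lost their calls under 7 of 15 and 11 of 14. Against 1 rise and 2 falls among subtilases, no filter gave 2 and 1, the 60th percentile filter 0 falls, quantile normalization and median centring 1 fall each, eBayes without trend 0 and 1, array weights 5 falls, the replicate block 0 and 1, and leaving out Col-0 replicate 2 with atsf1-2 replicate 3 together 1 fall. Leaving out single arrays gave 0 to 1 rises and 1 to 3 falls. Over all probe sets, 409 higher and 709 lower became 267 and 439 with no filter, 755 and 362 with median centring, 947 and 1713 with array weights and 171 and 263 with the replicate block, while eBayes without trend gave 271 higher. Leaving out single arrays gave 130 to 463 higher and 151 to 777 lower. With quantile normalization 449 were higher and 476 lower. The highest of these counts, 463 and 777, were those without atsf1-2 replicate 3. Without that array and Col-0 replicate 2 together, 433 were higher and 768 lower. Leaving out arrays leaves fewer samples, but the counts thus did not fall in every case, and the cause was not tested otherwise.

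Among genes that did not pass, AT1G30600 changed sign with quantile normalization (0.092), median centring (0.083) and without Col-0 replicate 1 (0.15; without single arrays -0.23 to 0.15), and AT2G05920 with quantile normalization (-0.0039). AT5G45650 changed sign without Col-0 replicate 1, atsf1-2 replicate 1 or atsf1-2 replicate 2 (without single arrays -0.054 to 0.19). Without atsf1-2 replicate 3, AT1G01900 (0.064), AT4G30020 (0.087) and AT5G59090 (0.044) did, the lowest values without single arrays being -0.33, -0.30 and -0.36, and AT5G59090 also without that array and Col-0 replicate 2 (0.014). The log2 ratio of AT5G59130 over AT5G59120 changed sign with quantile normalization (0.033), and lay between -0.56 and 0.59 without single arrays. The titles number the replicates and do not say whether same-numbered samples were handled together. Same-numbered arrays deviated from their genotype's mean with correlations of 0.10, -0.19 and -0.21. With 3 arrays per genotype these values cannot settle whether the samples were paired. The replicate block left AT5G59130 as the 1 member called. Averaging the probe sets of a locus was not run, because no member has more than 1.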
